A study of Homo sapiens with 24 samples.

Results

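The early-falling probe sets described here were 93 of the 49293 probe sets measured in HT29 cells, an established line from a human colorectal adenocarcinoma. A probe set is the group of short probes on an array that reads 1 transcript or a few related ones, and its value here is a log2 expression value, so that a difference of -1 means a level 2-fold lower. Members were chosen on their measured time course over all 24 arrays. Mean expression at 72 h had to be at least 0.585 lower than at 24 h on the log2 scale, a fall of 1.50-fold, and at least 0.3 lower in each of 2 replicate sets of arrays taken alone. At least 0.65 of that fall had to be reached by 48 h. Of 728 probe sets with the required fall at 72 h, 715 also met the condition in each replicate set, and 93 of these, or 13%, had reached the required share by 48 h. The other 622 are called the later-falling probe sets below.

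The study asked what VEGF and PDGF do to gene expression in HT29 cells. Freshly seeded cells were left for 24 h and then given VEGF at 100 ng/ml, PDGF at 100 ng/ml, the VEGF vehicle or the PDGF vehicle, and RNA was taken 24, 48 and 72 h later. These 4 treatments and 3 times make 12 groups of 2 arrays, 1 array from each replicate set, and all arrays of a replicate set were hybridised on the same day. All groups are the same cell line without any genetic change, and the labels do not say whether the 2 replicates of a group came from separate cultures, so the p-values below rest on how these particular arrays vary, and that variation may be technical.

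Cells preparing for division copy their DNA in S phase. At the passage from G1 into S phase, cyclin E and E2F transcription factors switch on genes for licensing and firing replication origins and for replicating and repairing DNA. Growing tumour cells also spend much of their transcription on ribosome production, polyamine synthesis and the chaperones that fold new proteins.

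The 93 members were assigned by the array's annotation to 64 genes through the 86 members that name a single gene. Another 3 members name several genes and 4 name none. RefSeq lists 61 of the 64 genes as protein coding and 3 (MALAT1, ZFAS1 and DLEU1) as long noncoding RNA. HSPH1, which encodes a large heat shock protein that helps HSP70 release its clients, had 8 members, all of the probe sets the array holds for it. FAM111B, a gene for a nuclear protease, had 3, and another 13 genes had 2 each, among them MCM10, GEMIN5, TIPIN, UHRF1, DTL, MSH6 and SLBP. Members of 1 gene read the same RNA and do not count as separate evidence.

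Promoter sequences were examined because several members are textbook E2F or heat shock factor targets. RefSeq promoters (GRCh38.p14, 250 bases before to 50 after the annotated start) were matched for 56 of the 64 genes. The E2F motif was searched as TTTGGCGC or TTTCCCGC and the heat shock element as GAA, any 2 bases, TTC, any 2 bases and GAA, or the same with GAA and TTC exchanged, each on both strands. UHRF1 (chr19:4909251-4909550, plus strand), DTL (chr1:212035498-212035797, plus strand) and MSH6 (chr2:47782895-47783194, plus strand) are shown as protein-coding genes that hold an E2F match. CHORDC1 (chr11:90223000-90223299, minus strand) is shown because it alone holds a heat shock element, here 3 overlapping matches. Capitals mark the matched bases.
UHRF1: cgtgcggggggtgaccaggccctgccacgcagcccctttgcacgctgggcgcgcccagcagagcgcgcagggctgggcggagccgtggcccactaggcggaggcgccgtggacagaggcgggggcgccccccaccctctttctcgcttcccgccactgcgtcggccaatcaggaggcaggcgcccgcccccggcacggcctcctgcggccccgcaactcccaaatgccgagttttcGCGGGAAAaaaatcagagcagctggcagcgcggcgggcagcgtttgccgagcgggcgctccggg
DTL: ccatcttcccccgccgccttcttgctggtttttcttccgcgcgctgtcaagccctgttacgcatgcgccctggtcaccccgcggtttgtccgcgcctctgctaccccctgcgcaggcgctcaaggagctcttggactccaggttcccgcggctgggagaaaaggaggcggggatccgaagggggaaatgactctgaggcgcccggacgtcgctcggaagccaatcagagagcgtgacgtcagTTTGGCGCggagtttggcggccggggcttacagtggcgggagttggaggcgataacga
MSH6: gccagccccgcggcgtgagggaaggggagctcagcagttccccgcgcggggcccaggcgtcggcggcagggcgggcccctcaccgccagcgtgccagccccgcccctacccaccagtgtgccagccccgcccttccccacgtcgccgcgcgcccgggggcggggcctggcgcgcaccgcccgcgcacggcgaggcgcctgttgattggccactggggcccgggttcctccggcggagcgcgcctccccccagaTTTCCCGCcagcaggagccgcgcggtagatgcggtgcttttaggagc
CHORDC1: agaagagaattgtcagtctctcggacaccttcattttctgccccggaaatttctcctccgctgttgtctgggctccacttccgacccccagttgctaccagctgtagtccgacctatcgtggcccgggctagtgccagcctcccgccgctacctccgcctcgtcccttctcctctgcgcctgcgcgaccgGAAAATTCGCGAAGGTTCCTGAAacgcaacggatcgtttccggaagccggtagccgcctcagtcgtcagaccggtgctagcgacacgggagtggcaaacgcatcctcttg

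An E2F match was held by 4 of the 56 member promoters (7.14%), those of DTL, MSH6, UHRF1 and the noncoding gene ZFAS1, and by 3.11% of the 14425 promoters of genes on the array. A heat shock element was found in 1 of 56 (1.79%) against 0.402% of all. The E-box CACGTG, which MYC and related factors can bind, was in 11 of 56 (19.6%) against 8.82% of all, and SRM, POLR1G and CEACAM6 were among the 11. The NRF1 motif, GCGC followed by any base and TGCGC, was in 10 of 56 (17.9%) against 8.92%, and the CCAAT box, found at many promoters, was in 21 (37.5%) against 36.4%. Its holders included MCM10, TIPIN and UNG, whose promoters held no E2F match. CCNE1, CCNE2, FAM111B, SLBP and HSPH1 showed no match to any motif searched or had no matched promoter. The motifs can overlap one another, and a match describes these letters and is not a binding site.

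As a group the members dropped soon after the first time point and then changed less. The median change over the 93 was -0.53 from 24 to 48 h and -0.69 from 24 to 72 h, while the median over all probe sets was 0.01 at both times. These changes chose the members and are given as a description. Single members ranged from -0.80 to -0.39 at 48 h and from -1.08 to -0.59 at 72 h, so most falls were modest. Only 2 members, of MCM10 (2.11-fold) and SRM (2.02-fold), were more than 2-fold lower at 72 h. The later-falling probe sets had a like median change at 72 h, -0.70, but stood at -0.35 at 48 h. The median share of the fall that was reached by 48 h was 0.724 for members and 0.487 for the later-falling ones.

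Array by array, all 8 arrays of 48 h lay below all 8 arrays of 24 h for 58 of the 93 members (1.92% of all probe sets), and all arrays of 72 h did for 72 (6.19% of all). All arrays of 72 h lay below all of 48 h for 4 members (1.45% of all), and for the other 89 they overlapped. The rule chose members on these same values, so nothing is read from these counts.

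**Figure D1:**
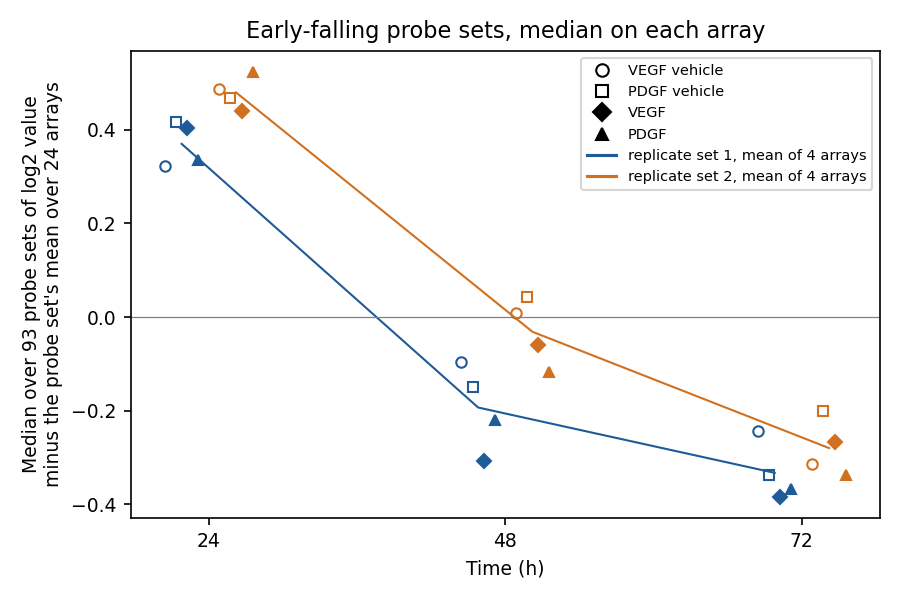
For each of the 24 arrays, the median over the 93 early-falling probe sets of the log2 value minus that probe set's mean over all arrays is plotted against time (h); symbols give the treatment, colours the replicate set, and lines join the means of 4 arrays. All 8 arrays of 24 h sit above all arrays of 48 and 72 h, and at 48 h the VEGF array of replicate set 1 is the lowest.

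Several members act in replication and the entry into S phase. MCM10, the member with the largest fall at 72 h and a replication factor that joins the helicase at firing origins (chr10:13161558-13211110, GRCh38.p14), had a lowest, median and highest value of 9.12, 9.27 and 9.37 over the 8 arrays of 24 h. They were 8.20, 8.55 and 8.77 at 48 h and 8.08, 8.14 and 8.32 at 72 h. The 24 h arrays did not overlap either later time, and the change was -0.72 by 48 h and -1.08 by 72 h. Its second member changed by -0.63 and -0.95, and its only other probe set, which is no member, by -0.65 and -1.02.

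UHRF1, which keeps DNA methylation on newly copied strands, stood at 10.38 to 10.64 (median 10.50) at 24 h. It was at 9.34 to 9.999 (median 9.88) at 48 h and at 9.33 to 9.61 (median 9.54) at 72 h. Again no array of 24 h overlapped the later ones, for changes of -0.69 and -0.99. TIPIN, a partner of the fork protection protein TIMELESS, changed by -0.66 and -0.99, from a median of 9.89 at 24 h to 9.25 and then 8.92.

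The cyclins that drive the G1 to S step were both on the list. CCNE2 ranged from 8.89 to 9.41 (median 9.19) at 24 h, from 7.61 to 8.90 (median 8.51) at 48 h and from 7.93 to 8.51 (median 8.39) at 72 h. Its 24 h and 48 h arrays therefore overlapped, narrowly, and most of its change of -0.86 was present at 48 h (-0.75). CCNE1 ranged from 9.49 to 9.62 (median 9.52) at 24 h, from 8.53 to 9.18 (median 9.06) at 48 h and from 8.80 to 9.00 (median 8.86) at 72 h. Its 24 h arrays lay above all later ones, and it changed by -0.55 and then -0.67 against 24 h.

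Other members of this role were FAM111B, DTL, MSH6, UNG and SLBP. FAM111B's 3 probe sets changed by -0.78, -0.73 and -0.70 at 48 h. DTL, a substrate receptor of the ubiquitin ligase that destroys licensing factors in S phase, changed by -0.65 and -0.56 in its 2 members at the same time, and MSH6, a mismatch repair protein, by -0.60 and -0.56. SLBP, which binds the stem-loop of histone mRNAs, changed by -0.53 and -0.52 in its 2. UNG, the uracil-DNA glycosylase that removes uracil from DNA, changed by -0.42 at 48 h and -0.64 at 72 h. CAD, the first enzyme of pyrimidine synthesis, changed by -0.45 and -0.60.

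**Figure D2:**
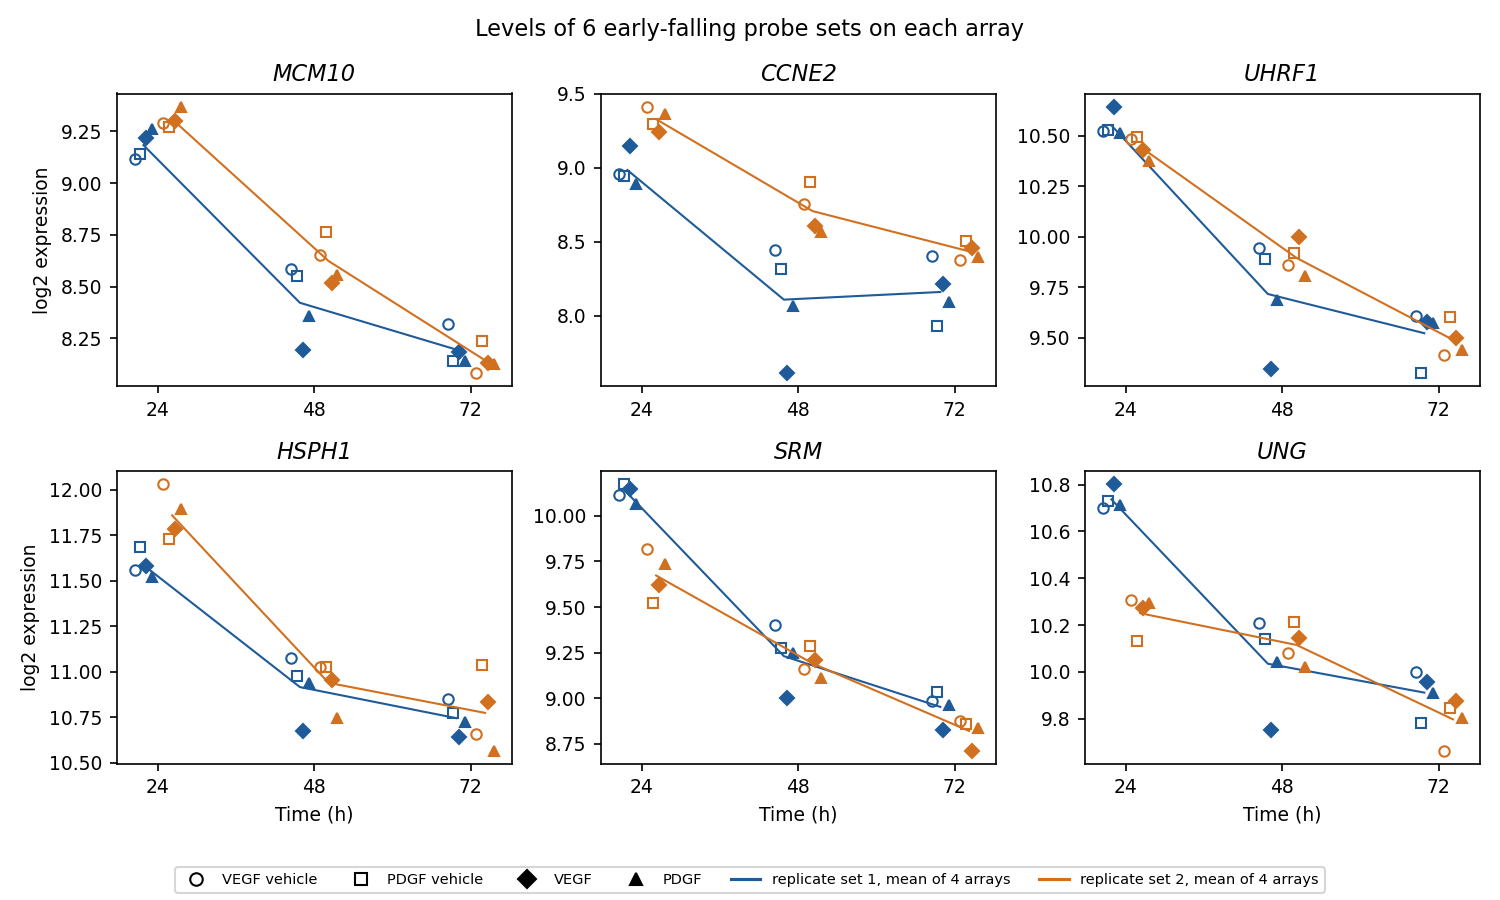
Log2 expression of 1 probe set each of MCM10, CCNE2, UHRF1, HSPH1, SRM and UNG on each of the 24 arrays against time (h); open symbols are vehicles, filled symbols are factors, and lines join the means of the 4 arrays of a replicate set at a time. Over all arrays the step from 24 to 48 h is the larger one in each of the 6 panels, and in UNG it differs between the sets.

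Chaperones formed a second group. HSPH1 (chr13:31134973-31162388) had its largest fall in a probe set that ran from 11.52 to 12.03 (median 11.71) at 24 h, from 10.67 to 11.08 (median 10.97) at 48 h and from 10.57 to 11.04 (median 10.75) at 72 h. The first time point did not overlap the others, and the changes were -0.80 and -0.96. Over all 8 HSPH1 probe sets the change at 48 h lay between -0.80 and -0.51. FKBP4, a co-chaperone of HSP90 on steroid receptors, changed by -0.60 and -0.88. CHORDC1, another HSP90 co-chaperone, changed by -0.50 and -0.72 in one member and -0.45 and -0.64 in the other.

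Members of ribosome production, RNA handling and translation included POLR1G, NOP9, NOL8, FTSJ3, PPRC1, GEMIN5, GEMIN4, SYNCRIP, DHX9, RBM25 and EIF4G1. POLR1G, a subunit of RNA polymerase I, ran from 10.14 to 10.67 (median 10.37) at 24 h and from 9.58 to 9.94 (median 9.79) at 48 h without overlap. GEMIN5, which recognises small nuclear RNAs for the SMN complex, ran from 9.46 to 9.62 (median 9.55) at 24 h, from 8.42 to 8.99 (median 8.86) at 48 h and from 8.40 to 8.69 (median 8.59) at 72 h. Its 24 h arrays were thus tightly grouped and clear of all others, with changes of -0.76 and -0.999. NOP9 and FTSJ3, which act in pre-rRNA processing, changed by -0.42 and -0.46 at 48 h.

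Among metabolic genes SRM led. It encodes spermidine synthase and lies at chr1:11054589-11060018. SRM ran from 9.52 to 10.17 (median 9.94) at 24 h, from 9.00 to 9.40 (median 9.23) at 48 h and from 8.71 to 9.03 (median 8.87) at 72 h, without overlap between 24 h and later arrays. MTAP, which recycles the by-product of polyamine synthesis, changed by -0.46 and -0.69. ALDH1A3, which makes retinoic acid, changed by -0.75 and -0.91 in its 1 member, while its other probe sets fell less or not at all. CYP1B1, a cytochrome P450, changed by -0.57 and -0.86 in the stronger of its 2 members. Its 24 h and 48 h arrays overlapped (9.34 to 10.24 and 8.83 to 9.57).

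Surface and cytoskeletal genes were fewer. CEACAM6, a carcinoembryonic antigen family adhesion protein of colon epithelium, was among the members with the highest level. It ran from 12.39 to 13.02 (median 12.66) at 24 h, from 11.82 to 12.34 (median 12.14) at 48 h and from 11.67 to 12.17 (median 12.03) at 72 h. TNC, the matrix protein tenascin C, changed by -0.61 and -0.94 at a low level (median 7.73 at 24 h), and LMNB1, the nuclear lamina protein lamin B1, by -0.55 and -0.81. EZR, which links membrane to actin, changed by -0.47 and -0.62.

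Some members spread widely between arrays and met the rule on their means. The probe set of ND1, a mitochondrially encoded subunit of respiratory complex I, ran from 11.15 to 12.02 at 24 h, from 9.84 to 12.27 at 48 h and up to 11.81 at 72 h (median 10.62), so that the 24 h range lay inside the 48 h range. The HNRNPM member (10.05 to 11.02, 9.00 to 11.21 and 9.20 to 10.69) had the same spread, as did a member without a gene. These 3 carry consecutive identifiers on the array, and their mean changes at 72 h were -0.95, -0.79 and -0.71. Each was also at a lower level in replicate set 2, as described with the set comparison.

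Members just inside and just outside each threshold differed little. At the 72 h threshold a DHX9 probe set lay inside at -0.586 and an HSPA8 probe set outside at -0.5847. At the threshold of share a member naming several genes lay inside at 0.651 and PIGW outside at 0.649. At the threshold for each replicate set, NOL8 lay inside at -0.34 in set 1 and CEACAM6 at -0.38 in set 2. The closest probe sets outside were a probe set of several or no genes at -0.22 and DHRS9 at -0.28.

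How many probe sets met the rule depended on single arrays. The VEGF array of replicate 1 at 48 h held the lowest 48 h value for 48 of the 93 members (51.6%), while it held the lowest for 19.0% of all probe sets. Without it 62 probe sets met the rule, 60 of them members, and the members' median 48 h change was -0.50 in place of -0.53. Without the PDGF vehicle array of replicate 2 at 48 h, 130 met it, 85 of them members. Vehicle arrays alone gave 52 probe sets, of which 36 were members, and treated arrays alone gave 185, of which 77 were members. On vehicle arrays the members' median change was -0.48 at 48 h and -0.66 at 72 h, and every member was lower at both times (-0.85 to -0.31 and -1.02 to -0.38). These arrays are among those the rule used, so their values are a description.

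The RNA integrity number, a measure of RNA degradation which is higher for more intact RNA, was lower at 24 h (8.8 to 9.6, median 9.3) than at 48 h (9.4 to 9.8) and 72 h (9.2 to 9.9). Its part in the time course was not tested. Values are normalised to bring the arrays close to 1 overall distribution, with array medians of 7.05 to 7.13. A change of total RNA per cell would therefore not be seen. Fewer cells of a kind and less RNA per cell cannot be told apart. All 12 epithelial markers, among them EPCAM (mean level 13.26) and KRT18 (14.31), exceeded the background limit on all 24 arrays, taken as the 95th percentile of spike-in (ERCC) probe sets. The dimmest of the 12 were CDX1 (6.88) and CDX2 (7.39). Of 13 markers of fibroblasts, endothelium and leukocytes, 8 exceeded it on all 24 arrays, COL1A2 on 21, PDGFRA on 14, and COL3A1, FLT1 and PTPRC on 0. Their mean levels were 6.23 to 7.22, close to those of CDX1 and CDX2, with a median change of 0.01 at 48 h and -0.02 at 72 h. Passing the limit alone therefore does not show that a gene is expressed. All 93 members exceeded that limit (6.45) on average, against 79.9% of all probe sets. Their median level was 9.29 against 7.09 over all, but the lowest member had a mean of 6.84, within the range of the non-epithelial markers.

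Other probe sets of the same genes mostly moved the same way. For 48 of the 64 genes the array holds 139 further probe sets that are not members. Of these, 125 (89.9%) had a lower mean at 48 h than at 24 h against 45.1% of all probe sets, and the median change was -0.26 at 48 h and -0.40 at 72 h. These values come from the arrays on which members were chosen. LMNB1's other probe sets changed by -0.75 to -0.69 at 72 h, and CHORDC1's 6 others had a median change of -0.81. Moving the same way does not mean falling early. Of the 139, 28 met the 72 h conditions but not the required share by 48 h, and so are later-falling probe sets. All 3 others of LMNB1 and 4 of CHORDC1's are among the 28. The rest of the 139 did not meet the 72 h conditions, though some had reached that share of a smaller fall.

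Other probe sets of some genes did not follow. ZFAS1, the host of several small nucleolar RNAs, had 1 member at -0.55 and -0.64, while its other 3 probe sets had changes of 0.30 to 0.54 at 48 h and 0.71 to 1.18 at 72 h. MALAT1's member stood at -0.54 and -0.69, and its other 2 at 0.00 to 0.06 and 0.14 to 0.46. UHRF1's only other probe set stood at 0.04 and 0.00. Of EZR's other 4, a pair had changes of 0.14 and 0.12 at 48 h and of -0.09 and -0.07 at 72 h. For INF2, DDX11, DFFA, HCFC1, KITLG and GEMIN4 the changes of the other probe sets at 72 h lay between -0.16 and 0.07. ALDH1A3's other 4 fell less than its member or not at all, with changes of -0.28 to 0.01 at 48 h and -0.34 to -0.01 at 72 h. CCNE1's only other probe set also fell less than its member, with changes of -0.18 and -0.24. For all these genes the fall is that of the member probe sets and is not a statement on the gene.

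Pathway lists set the members beside other genes of like role. In these lists, each gene was read by its brightest probe set. Over all treatments limma called 8.74% of all probe sets at 48 h (4.64% lower, 4.1% higher) and 26.8% at 72 h (12.5% lower, 14.4% higher), at an adjusted p under 0.05. In counts of list genes, fell and rose mean called lower or higher than at 24 h by limma. A gene left out of such a count can still have a lower or higher mean. The counts below include the member genes of a list, which were chosen on this contrast, and describe the lists only. Of the 64 member genes only 6 are in any of the 28 lists.

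MCM10 was the 1 member gene among 16 genes of the MCM helicase and replication origins, while 13 of the 16 had a later-falling probe set. Limma called all 16 lower by 72 h and 10 by 48 h, while all 16 had a lower mean at 48 h. The median change was -0.43 and then -0.86. CDC6, which loads the helicase, fell by 0.62 (SE 0.11, limma adjusted p = 0.0022) at 48 h, and MCM3, a helicase subunit, by 0.56 (SE 0.08, limma adjusted p = 0.000661). Their changes at 72 h were -1.002 and -0.954, so that both had reached less than the required share by 48 h. Of 20 genes of DNA synthesis and nucleotide supply, 0 have a member and 14 have a later-falling probe set. Limma called 12 of the 20 lower by 48 h and 19 by 72 h, while all 20 had a lower mean at 48 h. The median change over these genes went from -0.30 to -0.61. RRM2, the regulated subunit of ribonucleotide reductase, was among them (-0.60 and -1.02).

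CCNE1, CCNE2 and UHRF1 were the 3 member genes among 14 regulators of E2F and the G1 to S step, and 2 of the 14 had a later-falling probe set. Of the 14, 5 fell by 48 h, these 3 included, and 1 rose. By 72 h 9 fell and 1 rose. CDC25A, the phosphatase that activates CDK2, fell by 0.76 (SE 0.08, limma adjusted p = 5.57e-05) at 48 h, while the 1 that rose was CDKN1A, the CDK inhibitor p21 (0.30, SE 0.07, limma adjusted p = 0.00964). Of 18 genes of mitosis, 0 were called by limma at 48 h (1 with the replicate set as a block) and 10 fell by 72 h, with median changes of -0.10 and -0.38.

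Of 18 genes of ribosome biogenesis and MYC, limma called 12 lower by 48 h and 16 by 72 h (median -0.32 and -0.49). All 18 had a lower mean at 48 h, 0 have a member and 8 have a later-falling probe set. POLR1A, the largest subunit of RNA polymerase I, fell by 0.56 (SE 0.06, limma adjusted p = 6.23e-05) at 48 h. Of 11 heat shock and chaperone genes, 6 fell by 48 h and 6 by 72 h. This list had a median change of -0.29 at 48 h and -0.24 at 72 h. DNAJA1, an HSP40 co-chaperone, fell by 0.44 (SE 0.09, limma adjusted p = 0.00583) at 48 h and stood at -0.24 at 72 h. HSPH1, its only member gene, stood at -0.68 and -0.87 by its brightest probe set. CEACAM6 was the only member gene among 19 genes of enterocyte differentiation, of which 1 fell (2 with the block) and 2 rose by 48 h.

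**Figure D3:**
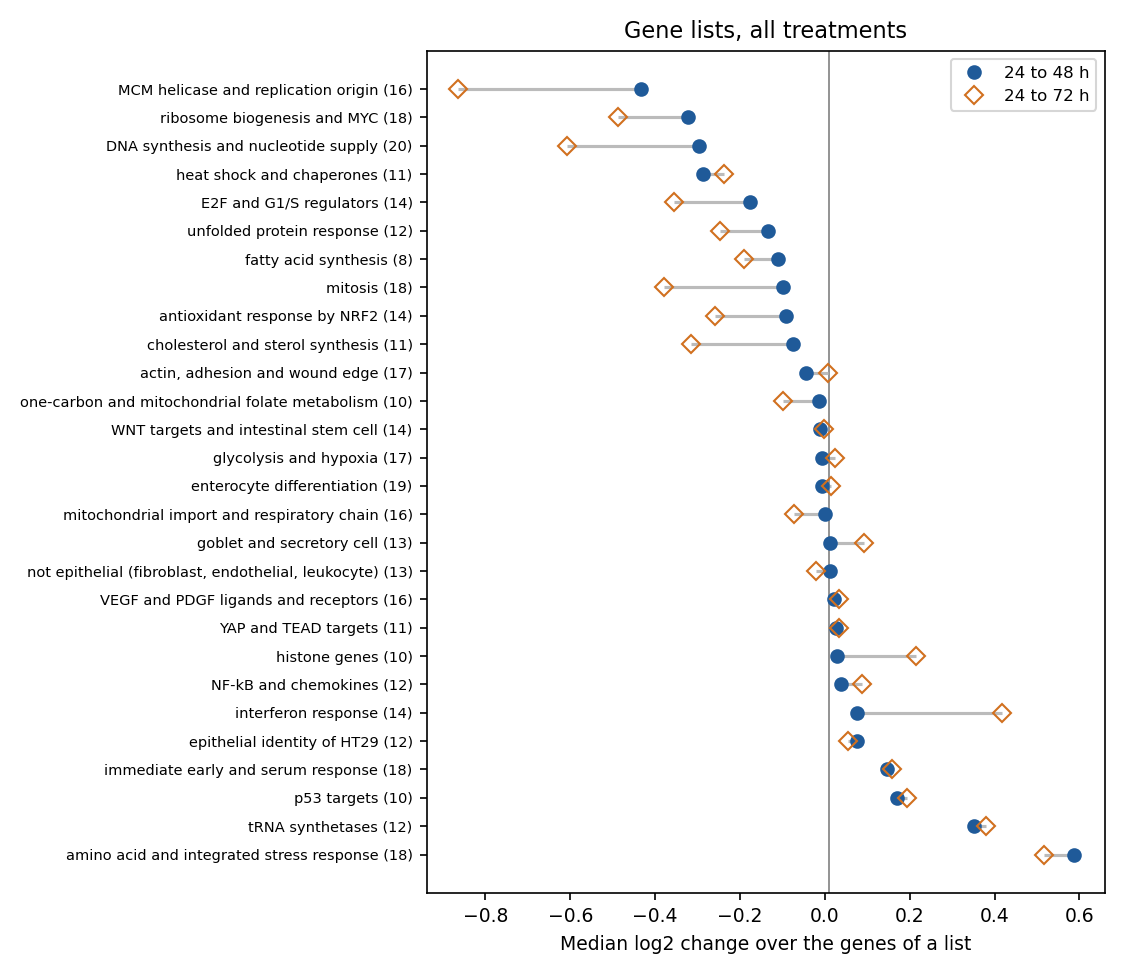
Median log2 change from 24 to 48 h (filled circles) and from 24 to 72 h (open diamonds) over the measured genes of each of 28 lists, with the number of genes in brackets; the vertical line is the median over 18134 genes. The MCM and replication origin list lies furthest to the left at both times (-0.43 and -0.86), and the heat shock list is nearly level between its 2 points.

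Neither growth factor changed any member past the threshold. In limma fits over all 24 arrays, 0 of 93 members passed an adjusted p of 0.05 for VEGF or PDGF against its own vehicle at 24, 48 or 72 h or averaged over the times, for the difference between the factors' effects, for both factors pooled, or for the difference in time course. The background was 0% of all probe sets in each of these 12 comparisons. With the replicate set as a block the count was also 0 in all 12. At an unadjusted p under 0.05 the number of members ran from 0 to 3 without the block and from 0 to 16 with it.

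With the block the members' share exceeded that of all probe sets most for VEGF at 48 h, PDGF at 72 h and both factors pooled, given below. Members move together from array to array, so these counts carry no test. For VEGF at 24 h there were 1 without the block and 3 with it (background 1.53% and 2.54%), and at 72 h 0 and 2 (background 3.05% and 4.02%). Averaged over the times there were 1 and 3 for VEGF (background 1.92% and 2.56%) and 1 and 6 for PDGF (background 1.36% and 2.21%). NOP9 had the lowest p for VEGF averaged over the times (-0.12, SE 0.05, unadjusted p = 0.0179, adjusted p = 1.00 in limma). For PDGF there were 0 and 1 at 24 h (background 1.05% and 1.32%) and 0 and 4 at 48 h (background 1.1% and 1.88%). The VEGF response differed from the PDGF response for 0 members with or without the block (background 1.17% and 1.59%), with a median difference of 0.02 over the 93.

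For VEGF at 48 h the 3 members (background 1.65%) were of GEMIN5, MCM10 and NOP9. GEMIN5 read 8.92 and 8.96 on the vehicle arrays and 8.42 and 8.88 on the VEGF arrays, replicate 1 given first each time. The fitted difference of -0.28 (SE 0.12) had an unadjusted p of 0.0299 and an adjusted p of 1.00 in limma. With the block, 16 members had an unadjusted p under 0.05 (background 3.84%). The median over members was -0.12, but it was -0.19 in replicate set 1 and -0.02 in set 2, and it was 0.02 without the VEGF 48 h array of replicate 1. The direction of that median therefore rests on 1 array.

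For PDGF the 2 members at 72 h (background 4.01%) were of PPRC1, a coactivator of nuclear genes for mitochondria, and PRRC2C, a protein of stress granules. PPRC1 read 8.81 and 8.82 on the PDGF vehicle arrays and 8.64 and 8.52 with PDGF, so that these arrays did not overlap. The difference was -0.23 (SE 0.07), with an unadjusted p of 0.00303 and an adjusted p of 1.00 in limma. PRRC2C read 9.91 and 10.20 on vehicle and 9.40 and 9.52 with PDGF, a difference of -0.59 (SE 0.23, unadjusted p = 0.0212 in limma, adjusted p = 1.00). The VEGF vehicle arrays of that time read 9.60 and 9.63 for PRRC2C, nearer to the PDGF arrays than to the PDGF vehicle. With the block 13 members had an unadjusted p under 0.05 (background 6.68%), and the lowest adjusted p was 0.586.

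At 24 h the medians over members were 0.00 for both factors, but the sets leaned opposite ways. For VEGF the median was 0.10 in set 1 and -0.08 in set 2, and for PDGF it was -0.09 and 0.07. It went from -0.07 to 0.13 for VEGF, without replicate 1 or 2 of its vehicle, and from -0.11 to 0.07 for PDGF, without replicate 2 or 1 of PDGF. The only member with an unadjusted p under 0.05 was TNC with VEGF (0.20, SE 0.09, unadjusted p = 0.0348 and adjusted p = 1.00 in limma). TNC read 7.69 and 7.49 on the vehicle arrays and 7.93 and 7.65 with VEGF, so that the VEGF array was the higher one in each replicate set while the ranges overlapped. CHORDC1 had the lowest p for PDGF at 24 h (-0.23, SE 0.16, unadjusted p = 0.153, adjusted p = 1.00 in limma).

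Pooled over factors and times, members were slightly lower with a factor than with a vehicle. The fitted difference was below 0 for 85 of 93 members (91.4%) against 48.4% of all probe sets, with a median of -0.07 and a range of -0.20 to 0.07, and 3 members had an unadjusted p under 0.05 (background 2.09%), or 15 with the block (background 3.29%). PPRC1 had the lowest p (-0.10, SE 0.03, unadjusted p = 0.0021, adjusted p = 1.00 in limma). Without the VEGF 48 h array of replicate 1 the difference was below 0 for 73 members (78.5%, against 49.0% of all) and the median was -0.03. These shares likewise carry no test.

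The fall itself was then compared between treated and vehicle cultures. The rule chose members on means that include all these arrays, so the shares and medians below describe the members and carry no test. At 48 h the VEGF array of replicate 1 was the lowest for 51.6% of members, against 19.0% of all probe sets. From 24 to 48 h the members' change was more negative in treated arrays for 78 of 93 (83.9%, against 51.0% of all probe sets), with a median difference of -0.09, and 0 passed the threshold in limma. With the block 9 had an unadjusted p under 0.05 (background 3%). Without it there were 2 (background 1.31%), MCM10 (-0.31, SE 0.11, unadjusted p = 0.0127, adjusted p = 1.00) and CCNE1 (-0.30, SE 0.13, unadjusted p = 0.0436, adjusted p = 1.00). From 24 to 72 h the median difference was -0.08, with 1 member at an unadjusted p under 0.05, PPRC1 (-0.17, SE 0.07, unadjusted p = 0.0235 in limma, background 2.81%), and 8 with the block (background 4.34%). Single arrays moved both medians. The 48 h one was -0.15 without the PDGF vehicle 48 h array of replicate 1 and -0.04 without the VEGF vehicle 24 h array of replicate 1. The 72 h one was -0.12 without the PDGF 24 h array of replicate 1 and -0.01 without the VEGF vehicle 24 h array of replicate 1.

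**Figure D4:**
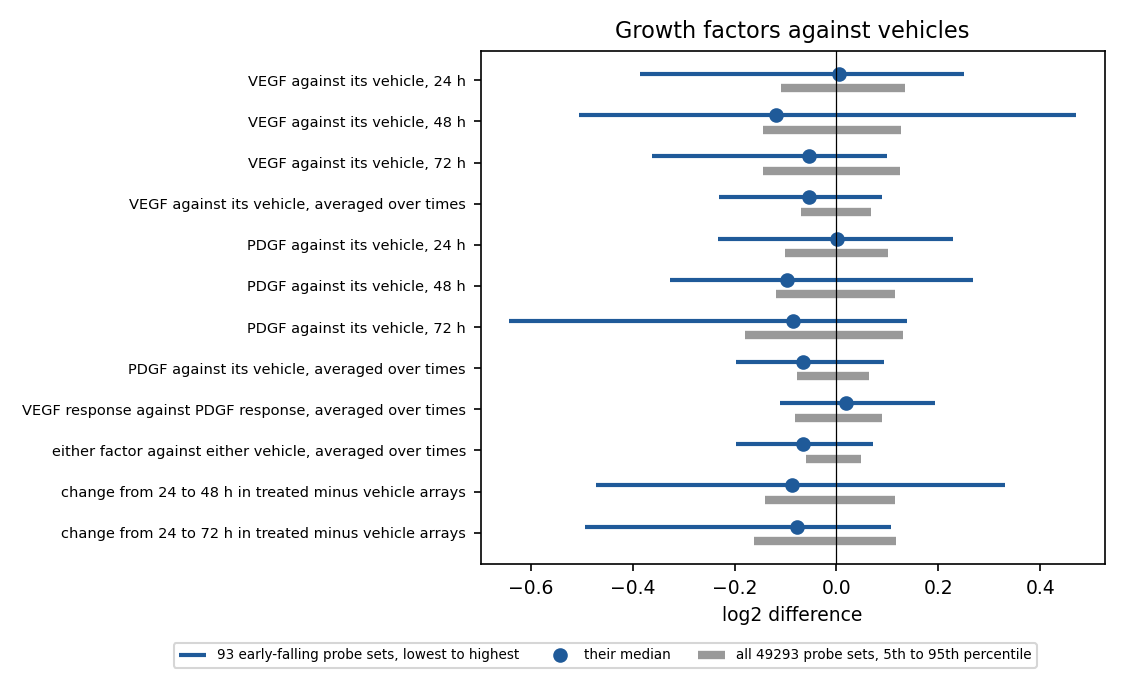
Log2 difference for the 12 comparisons of factor with vehicle; thin lines run from the lowest to the highest of the 93 early-falling probe sets, dots mark their median, and grey bars run from the 5th to the 95th percentile of all 49293 probe sets. The medians lie between -0.12 and 0.02.

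More members passed the threshold between the replicate sets than between treatments, but the tests differ in precision. The set comparison has 12 arrays on each side and a median SE over members of 0.05, against 0.17 for a factor at 1 time. In limma 57 of 93 members differed in level between the sets (background 28.3%), 42 higher in set 2 (background 14.8%) and 15 lower (background 13.5%). Members are brighter than most probe sets (median level 9.29 against 7.09 over all), and several read the same RNA. The excess over the background is therefore not read as a trait of the members. PKM, the last enzyme of glycolysis, was higher in set 2 by 1.03 (SE 0.08), a DHX9 probe set by 0.73 and the CYP1B1 probe sets by 0.66 and 0.62. ND1 was lower in set 2 by a difference of -1.04 (SE 0.12) and HNRNPM by -0.93 (SE 0.11), and MALAT1 followed at -0.61.

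Among the chosen members the share of the fall reached by 48 h was not the same in the sets. The rule bounds that share only over both sets pooled, so a large 48 h fall in 1 set can admit a member. The shares and counts below are shaped by that choice, and nothing is read from their excess over the background. The median change at 48 h was -0.52 in set 1 and -0.48 in set 2, and at 72 h -0.70 and -0.76, so that set 1 had reached a median share of 0.802 of its fall by 48 h and set 2 of 0.641. For 9 of 93 members limma found a different 48 h change in the sets (background 4.99%), all with a smaller fall in set 2 (background 1.85% in that direction). At an unadjusted p under 0.05 there were 49 (background 16.5%).

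Among the 9, UNG had the largest difference. In set 1 it ran from 10.70 to 10.80 at 24 h and from 9.75 to 10.21 at 48 h, while in set 2 it ran from 10.13 to 10.30 and from 10.02 to 10.21. Set 2 was thus already low at 24 h, and its 24 and 48 h arrays overlapped. The change was -0.70 in set 1 and -0.14 in set 2, a difference of 0.57 (SE 0.10, limma adjusted p = 0.000865). SRM changed by -0.89 and -0.48, a difference of 0.41 (SE 0.09, limma adjusted p = 0.00877).

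The other 7 were probe sets of CEACAM6, DTL, FKBP4, POLR1G, MCM10, UHRF1 and TIPIN, with differences of 0.27 to 0.47. The MCM10 probe set with the largest fall was not the one called, and its difference was 0.08 (SE 0.09, limma adjusted p = 0.789). DTL ran from 8.80 to 9.02 and then 7.67 to 8.16 in set 1, and from 8.76 to 8.92 and then 8.33 to 8.52 in set 2. The 24 h ranges of the sets overlapped, and DTL was lower at 48 h in both, by more in set 1 (-0.89 against -0.42). CEACAM6 started higher in set 1 (12.78 to 13.02) than in set 2 (12.39 to 12.53).

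HSPH1 leaned the other way in all 8 probe sets, with differences of -0.40 to -0.18, and CHORDC1 reached -0.31 (SE 0.10), but none of these passed the threshold (limma adjusted p = 0.0534 for CHORDC1). ND1 changed by -0.30 in set 1 and -1.09 in set 2, a difference of -0.78 (SE 0.26, limma adjusted p = 0.0773). The 8 HSPH1 probe sets read the same RNA and do not count as separate evidence. Among all members the 48 h fall was larger in set 1 for 59 and larger in set 2 for 34. No contrast between HSPH1 and the 9 called probe sets is therefore drawn.

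**Figure D5:**
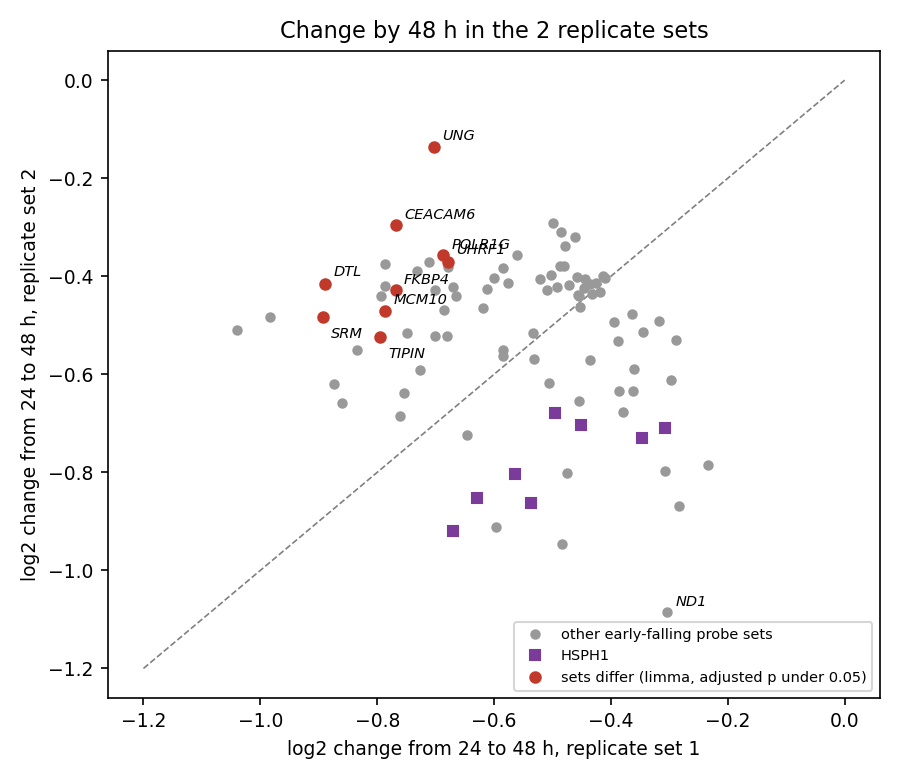
Each point is 1 of the 93 early-falling probe sets, placed by its log2 change from 24 to 48 h in replicate set 1 (horizontal) and set 2 (vertical); the dashed line marks equal change, red points are the 9 probe sets whose change differed between sets in limma, and purple squares are HSPH1. The red points lie above the line and the 8 HSPH1 squares below it.

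The 4 arrays of a set at a time are different treatments hybridised on the same day and are not independent cultures of a treatment, so this test treats treatments as replicates. Read by treatment, the median difference between the sets was -0.07 with the VEGF vehicle, 0.19 with the PDGF vehicle, 0.21 with VEGF and -0.02 with PDGF. Leaving out the VEGF vehicle 48 h array of replicate 1 raised the 9 to 19.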

How the data were processed

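Total RNA from 24 samples of HT29 cells was amplified with biotin label for Affymetrix arrays, per the labels' protocols. The authors deposited log2 expression values. The submitters' processing notes name RMA and R 3.0.1. RMA subtracts background, puts all arrays on 1 distribution and summarises each probe set. After 102 AFFX and 100 ERCC control probe sets were set aside, 49293 remained, with no filter on dim ones. The number of arrays limits the precision.

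Gene names came from the platform annotation, updated to RefSeq symbols. Probe sets ending in _s_at or _x_at can read several transcripts. Tests were 2-sided fits with limma 3.58.1 in R 4.3.3 (lmFit, eBayes) on the deposited log2 values of all probe sets, with a mean per group, Benjamini-Hochberg adjustment over all 49293 and a threshold of 0.05. The set difference at 48 h used a mean per time and set. Tables were handled in Python 3.11.15 and pandas 2.3.3. The fits were tested on simulated data. Replicate numbers mark a shared hybridisation day per the labels, and deviations of same-numbered arrays correlated in all 66 pairs of groups (r 0.26 to 0.80), so the replicate set as a block was the alternative. Others left out arrays, pooled vehicles, changed the scaling, the filter, the fit or the threshold of share, or added the RNA integrity number.

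Members, lists and tests were chosen with earlier results of these data known. Genes named were the 24 with the largest fall at 72 h, those with several members, list members, the lowest p of each comparison, the members next to a threshold, the 6 brightest and the largest set differences. Others named for their role were chosen after their values were seen, and the limma calls for the gene lists were added after seeing the data.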

Additional observations from a re-analysis of the deposited data

Results flagged for a closer look

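In 96 groups of 8 arrays (1 time, and either 1 named member or the median over members), 2 held an array that stood apart from the rest. This was judged by Dixon's criterion, which by chance marks about 1 in 20 groups. At 48 h the UHRF1 value of 9.344 on the VEGF array of replicate 1 was separated from the nearest array at 9.689 by 0.526 of the range. At 72 h the CCNE1 value of 8.996 on the PDGF vehicle array of replicate 2 was separated from the nearest at 8.893 by 0.528 of the range.

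The change from 24 to 48 h differed between the replicate sets for 9 members by limma, as set 2 minus set 1. The differences were 0.567 for UNG, 0.473 for CEACAM6, 0.472 for DTL, 0.411 for SRM, 0.34 for FKBP4, 0.33 for POLR1G, 0.317 for MCM10, 0.308 for UHRF1 and 0.271 for TIPIN. Each fell less in set 2.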

How the results depend on the processing

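The count of 0 members past the threshold held in all 12 factor comparisons under every alternative, the replicate block (0) and the RNA integrity number with the block (0) included. The replicate block changed no call in these 12 comparisons, and the gene list counts that it moved by over 1.5 times are given with each list described. For the 48 h change between replicate sets, 9 became 17 after quantile normalisation, and 7 to 19 with 1 array left out. The difference in level between the sets, 57, was 55 to 64 with 1 array left out. The number of members, 93, became 52 with vehicle arrays alone, 185 with treated arrays alone, 164 at a share of 0.6 and 57 at a share of 0.7. Quantile normalisation gave 70 (63 shared) and median centring 114 (87 shared), and leaving out 1 array gave 62 to 130. The cause was not tested. Over all results and alternatives 1877 were unchanged in direction and call, 184 moved and 0 reversed. With 2 arrays a group, the members' median SE was 0.17 for a factor at 1 time, and differences well above it could go uncalled. PRRC2C with PDGF at 72 h differed by -0.59 (SE 0.23) and did not pass the threshold. The count of 0 therefore does not show that the factors left the members unchanged.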

Other observations

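Some lists held many genes that rose. Of 18 genes of the amino acid and integrated stress response, 11 rose by 48 h and 13 by 72 h in limma (1 fell at each time), or 17 at both times with the replicate set as a block, with median changes of 0.59 and 0.52. Of 12 tRNA synthetases, 7 rose by 48 h and 8 by 72 h, or 11 and 12 with the block (median 0.35 and 0.38). Neither list holds a member. The interferon response list rose later: of 14 genes, 0 were called at 48 h by limma (3 higher and 2 lower with the block) and 9 rose by 72 h. Its median change was 0.07 and then 0.42.

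Of 16 genes for VEGF and PDGF ligands and receptors, 0 have a member, 0 fell at either time, and 1 rose by 48 h (2 with the block) and 4 by 72 h in limma. The median change was 0.02 and 0.03.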
